A study of Mus musculus with 26 samples.

Results

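Loss of Ezh2 was examined on the background of the JAK2V617F mutation, in bone marrow haematopoietic stem cells (HSCs) of mice. The comparison used 14 of the 26 libraries of the series, chosen by genotype label: 7 of JAK2V617F with Ezh2 loss, called the double mutant here, and 7 of JAK2V617F alone. The remaining 12 libraries, 7 of Ezh2 loss without JAK2V617F and 5 of control mice, served only to set the same change on the other background beside it. Both compared groups carry JAK2V617F, and the genotype label of the double mutant spells it JAK2V17F. The cells were sorted by flow cytometry and each library was made with Smart-Seq2, a full-length cDNA method for small cell numbers. Levels are RPKM, read counts scaled by gene length and by the total of the library. The sources used here do not name the alleles, any Cre driver, the strain, the age, the sex or the number of cells per library. Nothing says whether libraries of a group came from separate mice, so the p-values measure the spread between libraries only.

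The library titles come in 2 forms, with a running number before or after the group code. All 7 double-mutant titles put the number first, but only 2 of the 7 JAK2V617F titles do, and what the 2 forms stand for is not given. A gene is therefore reported as changed only if it was called by limma (Benjamini-Hochberg adjusted p under 0.05 over all tested genes, on log2(RPKM + 1)) and its difference also had the same sign against the 2 number-first and against the 5 number-last JAK2V617F libraries. Such genes are said to have risen or fallen. Fold changes are on the log2(RPKM + 1) scale, which understates the change of low genes, and run double mutant minus JAK2V617F.

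Ezh2 is the main catalytic subunit of Polycomb repressive complex 2 (PRC2), which methylates lysine 27 of histone H3 and thereby helps to keep genes silent. JAK2V617F is an activating mutation of the kinase that signals below cytokine receptors through STAT factors, and it drives myeloproliferative neoplasms. In mice that carry JAK2V617F, loss of Ezh2 is known to speed the disease towards myelofibrosis.

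Ezh2 itself had 6.71 to 31.4 RPKM (median 15.1) in double-mutant libraries and 20.4 to 40.2 RPKM (median 24) in JAK2V617F libraries. The groups overlapped: 2 double-mutant libraries, at 28.3 and 31.4 RPKM, lay within the JAK2V617F range. The mean log2 difference was -0.72 (limma SE 0.34, adjusted p = 0.234), and the exact two-sided permutation test of this single gene gave p = 0.0385. Without 1 library the difference ran between -0.878 and -0.533, and the exact p passed 0.05 in 9 of the 14 such settings, reaching 0.0769. Reads over the whole gene do not show how much of the transcript is intact. Jak2 had 1.57 to 23.5 RPKM (median 11.6) in the double mutant and 0.996 to 18.9 RPKM (median 14.5) in JAK2V617F, a difference of -0.25 that did not pass (exact permutation p = 0.676).

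The read totals, estimated from the RPKM values, were 17253579 to 29207920 in the double mutant and 8449031 to 18023956 in JAK2V617F. Genes at 1 RPKM or more numbered 10074 to 10840 in the double mutant and 9386 to 10490 in JAK2V617F. The 2 number-first JAK2V617F libraries had 17578518 and 18023956 reads and 10490 genes each, within the double-mutant ranges. The 5 number-last ones had 8449031 to 16168008 reads and 9386 to 9829 genes. The first principal component held 23.2% of the variance and set the 7 double-mutant and 2 number-first JAK2V617F libraries (-54.9 to -16.2) apart from the 5 number-last JAK2V617F libraries (46.4 to 79.7). The 8 stem cell markers went both ways. Procr had 102 to 222 RPKM in the double mutant and 58.9 to 168 RPKM in JAK2V617F. In the same order, Kit had 75.6 to 165 and 54.5 to 120 RPKM, and Ly6a 351 to 937 and 188 to 749 RPKM. Mecom had 10.9 to 36.65 and 3.66 to 30.9 RPKM, and Mllt3 28.9 to 59.9 and 47.2 to 105 RPKM. Slamf1 had 8.13 to 52.8 and 15.7 to 64.2 RPKM, and Hlf 30.7 to 64.4 and 36.6 to 67.9 RPKM. Fgd5 had 0 to 7.63 and 0.0483 to 11.9 RPKM, and was thus at 0 in at least 1 double-mutant library. Neutrophil markers summed to 43.2 to 52098 RPKM (median 212) in the double mutant and 72.9 to 17655 RPKM (median 86.2) in JAK2V617F; S100a8 was above 1000 RPKM in double-mutant replicates 3 and 4 and JAK2V617F replicate 3. Erythroid markers reached 42.1 RPKM in the double mutant and 26.5 RPKM in JAK2V617F. Mast cell and basophil markers were near 0, at up to 10.4 RPKM in the double mutant and 10.7 RPKM in JAK2V617F. B cell markers summed to 69.5 to 215 RPKM (median 101) in the double mutant and 53.1 to 181 RPKM (median 92.7) in JAK2V617F. In the same order, T and NK cell markers had 29.2 to 193 (median 54.1) and 21.8 to 133 RPKM (median 80.4). Endothelial and stromal markers had 36.4 to 70.5 (median 55.5) and 23.7 to 57.1 RPKM (median 49.0). Macrophage and dendritic cell markers summed to 2.49 to 104 RPKM (median 12.1) in the double mutant and 0 to 36.8 RPKM (median 0.0467) in JAK2V617F, and their part in the results was not tested.

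Of 11203 tested genes, limma called 342 between the double mutant and JAK2V617F (3.05%), and 336 of them held their direction (3.0%). Among these 336, 214 rose (1.91%) and 122 fell (1.09%) in the double mutant. The 6 genes called without a held direction were Lsm7, Actg1, Ppt2, Med25, Mrpl23 and Erdr1. Over all tested genes, called or not, 58.9% were higher in the double mutant than in JAK2V617F. That is the share to set beside each list's count of higher genes below, and 3.0% the share beside its called genes. Against both kinds of JAK2V617F library, 33.8% of all tested genes were higher and 25.4% lower in the double mutant. Every double-mutant library lay above every JAK2V617F library for 62 genes (0.553%) and below for 34 (0.303%). Of the 336 genes, 50 rises and 26 falls had no overlap between the groups.

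The rises and falls differed in more than sign. Rising genes had a median level of 28.4 RPKM over the 14 libraries and falling genes 167 RPKM, against 13.3 RPKM over all tested genes. Falling genes were also short, with a median exon length of 1989 bases, against 4000.5 bases for rising genes and 4329 for all. The difference against the nearer kind of JAK2V617F library was at least 1 on the log2 scale for 80 rises and 23 falls, and under 0.5 for 64 rises and 58 falls.

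**Figure D1:**
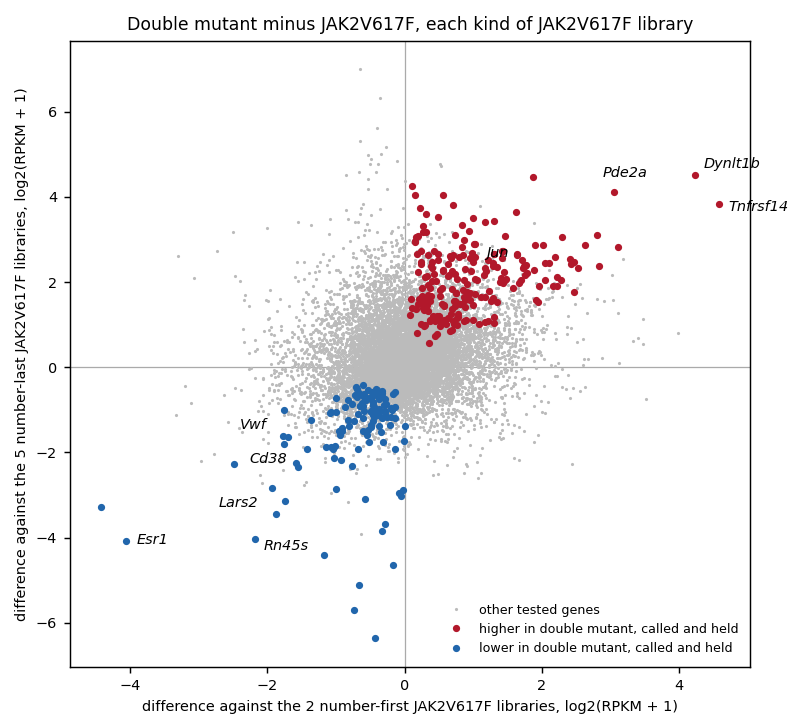
Difference of mean log2(RPKM + 1) of the double mutant against the 2 number-first JAK2V617F libraries (x axis) and against the 5 number-last ones (y axis), 1 point per tested gene. Grey points were not called or did not hold; the 214 rises (red) lie in the upper right and the 122 falls (blue) in the lower left, with Dynlt1b, Tnfrsf14 and Pde2a at one end and Esr1 at the other.

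These counts lean on the number-last JAK2V617F libraries and on measures of the libraries that move with the groups. With title form as a covariate, the comparison rests on the 2 number-first JAK2V617F libraries and limma called 4 genes (0.0357%), with 596 at an unadjusted p under 0.05 (5.32%). Of the 336 genes, whose sign in that fit the rule fixes, 126 had an unadjusted p under 0.05. With the number of detected genes as a covariate 6 genes were called, and with the ribosomal RNA precursor Rn45s as a covariate 1 gene. Leaving out 1 library gave between 72 rises (without double-mutant replicate 5) and 447 (without JAK2V617F replicate 1), and between 44 falls (without JAK2V617F replicate 6) and 239 (without JAK2V617F replicate 3); 97 genes, 60 higher and 37 lower, were called in each of the 14 fits. JAK2V617F replicates 1 and 3 are the 2 number-first JAK2V617F libraries. Without either of them, the direction against that kind rests on 1 library. Genes described below as stable are among those 97.

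Dynlt1b, a dynein light chain, showed the largest rise among the named genes. It had 15.5 to 32.5 RPKM (median 20.9) in double-mutant libraries, while 5 of the 7 JAK2V617F libraries were listed at 0 and the highest had 0.369 RPKM. The log2 difference was 4.43 (SE 0.36, limma adjusted p = 1.94e-06), and 4.23 with title form as a covariate (SE 0.54, adjusted p = 0.00381). The groups did not overlap for this gene, and the call was stable.

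Tnfrsf14, the herpesvirus entry mediator and a receptor for the TNF-family ligand LIGHT, lies on chromosome 4 (GRCm38, 154921933 to 154928563, minus strand) and had 6.71 to 38.5 RPKM (median 26.4) in the double mutant. It was listed at 0 in 5 JAK2V617F libraries, both number-first ones included, and had 2.25 and 3.19 RPKM in the other two. The log2 difference was 4.04 (SE 0.49, limma adjusted p = 0.000319), a stable call without overlap, and with title form as a covariate the adjusted p was 0.0172. Pde2a, a phosphodiesterase that cGMP stimulates, lies on chromosome 7 (101421691 to 101512827, plus strand) and had 11.9 to 32.7 RPKM (median 22.8) in the double mutant and 0 to 2.38 RPKM (median 0.308) in JAK2V617F. Its log2 difference of 3.81 (SE 0.42, adjusted p = 9.16e-05) was again stable and without overlap; with title form as a covariate it was 3.05 and the adjusted p was 0.143.

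Mier2, a member of the mesoderm induction early response family, had 6.38 to 24.3 RPKM (median 8.09) in the double mutant and 0 to 2.80 RPKM (median 0.139) in JAK2V617F, a log2 difference of 2.91 (SE 0.49, limma adjusted p = 0.00828). Sepsecs, which makes the selenocysteine tRNA, rose by 2.51 (adjusted p = 0.00984), the zinc finger gene Zfp184 by 2.51 (adjusted p = 0.0184) and Elmod3 by 2.83 (adjusted p = 0.0184). All of these were stable, but in each of the last 3 the highest JAK2V617F library overlapped the lowest double-mutant library. Acbd4, the nuclear receptor gene Rora, the p38 activator Map2k6, Prickle3 and the PRC2 partner Phf1 completed the 12 leading rises, with log2 differences of 2.14 to 2.47 and adjusted p of 0.0281 to 0.0493. Each of these 5 lost its call in 7 to 11 of the 14 fits without 1 library, with adjusted p of up to 0.0998.

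Kazald1, a secreted protein with insulin-like growth factor binding and Kazal domains, was called with title form as a covariate but not without it. It had 22.1 to 78.4 RPKM in the double mutant, 0 and 6.43 RPKM in the 2 number-first JAK2V617F libraries and 10.4 to 33.8 RPKM in the number-last ones. Its difference over all 14 libraries was 1.72 (limma adjusted p = 0.125), and 3.98 with the covariate (adjusted p = 0.0164).

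Dynlt1b lies on chromosome 17 (GRCm38, 6430112 to 6436296, plus strand) and its neighbour Tmem181b-ps, an annotated pseudogene, begins 2228 bases beyond it (6438524 to 6467022, minus strand). Tmem181b-ps, chosen after its values were seen, had 0.557 to 11.5 RPKM (median 7.52) in double-mutant libraries and was listed at 0 in all 7 JAK2V617F libraries (limma adjusted p = 0.0119). Across the 26 libraries of the series, both genes were under 1 RPKM in 8: the 7 JAK2V617F libraries and control replicate 3, and Dynlt1b was under 1 RPKM in no other. The related genes Tmem181a and Dynlt1a, at 6256860 and 6306340 on the same chromosome, were detected in JAK2V617F libraries, Tmem181a at 0.899 to 10.3 RPKM and Dynlt1a at 0 to 15.5 RPKM. These genes are near copies of one another, so the split of reads between them is uncertain, and whether the 2 signals share a source was not tested.

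**Figure D2:**
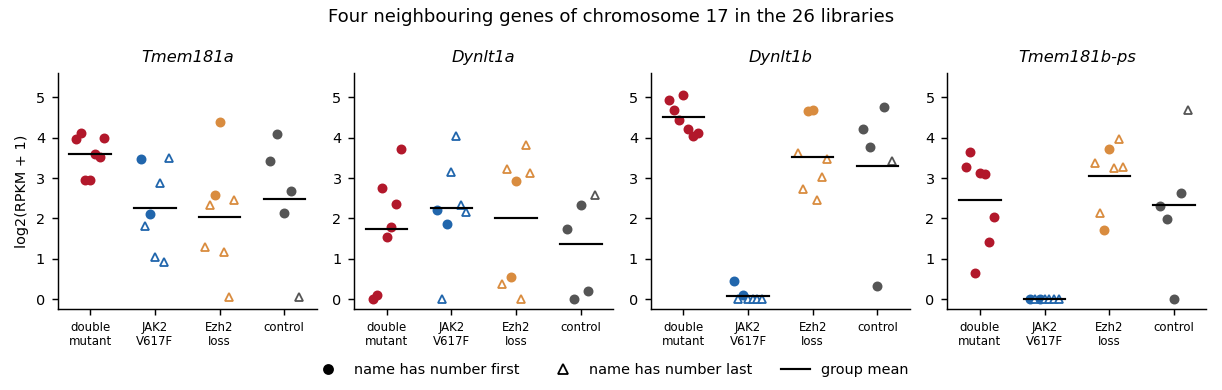
RPKM of Tmem181a, Dynlt1a, Dynlt1b and Tmem181b-ps in each of the 26 libraries by group. Dynlt1b and Tmem181b-ps are at or near 0 in the 7 JAK2V617F libraries and in control replicate 3, while Tmem181a and Dynlt1a are above 1 RPKM in most of these 8.

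Esr1, which encodes oestrogen receptor alpha, a hormone receptor known to promote HSC division in female mice, showed the largest fall among the named genes. It had 0.0403 to 0.473 RPKM (median 0.351) in double-mutant libraries, against 13 to 38.4 RPKM (median 20.5) in JAK2V617F libraries. The lowest JAK2V617F library was thus far above the highest double-mutant library. The log2 difference was -4.07 (SE 0.37, limma adjusted p = 6.76e-06), a stable call, and -4.06 with title form as a covariate (SE 0.57, adjusted p = 0.00571). Esr1 lies on chromosome 10 (GRCm38, 4611593 to 5005614, plus strand).

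Cd38, a surface enzyme that consumes NAD, had 0.639 to 15.6 RPKM (median 10.4) in the double mutant and 24.8 to 67.8 RPKM (median 28.3) in JAK2V617F. Vwf, von Willebrand factor and in mice a marker of platelet-biased HSCs, had 1.47 to 5.26 RPKM (median 4.30) in the double mutant and 6.47 to 22.1 RPKM (median 12.5) in JAK2V617F. Cd38 lies on chromosome 5 (GRCm38, 43868553 to 43912375, plus strand) and Vwf on chromosome 6 (125546774 to 125686679, plus strand). Neither gene had any overlap between the groups. Cd38 fell by 2.05 (SE 0.46, limma adjusted p = 0.0243) and Vwf fell by 1.66 (SE 0.38, adjusted p = 0.0278). The Cd38 call was lost without double-mutant replicate 2 (adjusted p = 0.0508), JAK2V617F replicate 5 (0.0538) or 7 (0.057). The Vwf call was lost without double-mutant replicate 1 (0.0544) or 7 (0.0509), or without JAK2V617F replicate 5 (0.0589) or 6 (0.0635).

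Gins2, a subunit of the replicative helicase, had 6.66 to 21.7 RPKM (median 15.7) in the double mutant and 26.5 to 101 RPKM (median 35.1) in JAK2V617F, with a log2 difference of -1.65 (SE 0.36, limma adjusted p = 0.0217; 0.0541 without JAK2V617F replicate 6). Tmem107, a protein of the cilium base, had 5.68 to 23.4 RPKM (median 11.2) in the double mutant and 23.8 to 70.4 RPKM (median 39.8) in JAK2V617F (-1.78, adjusted p = 0.0128). The nuclear kinase gene Hipk1 had 7.14 to 21.8 RPKM (median 15.3) in the double mutant and 27.2 to 93.6 RPKM (median 50.5) in JAK2V617F (-1.67, adjusted p = 0.00984). In all 3 genes every double-mutant library lay below every JAK2V617F library, and the Tmem107 and Hipk1 calls were stable.

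Rn45s, the precursor of ribosomal RNA, had 77.6 to 1100 RPKM (median 302) in the double mutant and 364 to 6223 RPKM (median 3811) in JAK2V617F (-3.51, limma adjusted p = 0.0198). Lars2, the mitochondrial leucyl-tRNA synthetase, had 3.41 to 26 RPKM (median 9.33) in the double mutant and 10.6 to 258 RPKM (median 81.9) in JAK2V617F (-2.99, adjusted p = 0.00974). Both falls were stable and larger against number-last JAK2V617F libraries (-4.04 and -3.44) than against number-first ones (-2.18 and -1.87). Fam102b, the sorting nexin gene Snx25, the histone H4 gene Hist1h4i and the dendritic cell receptor gene Clec9a completed the 12 leading falls, with log2 differences of -2.75 to -1.79 and adjusted p of 0.0233 to 0.0496. Histone H4 genes are near copies, so Hist1h4i is uncertain, and each of these 4 lost its call in 3 to 11 of the 14 fits without 1 library.

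**Figure D3:**
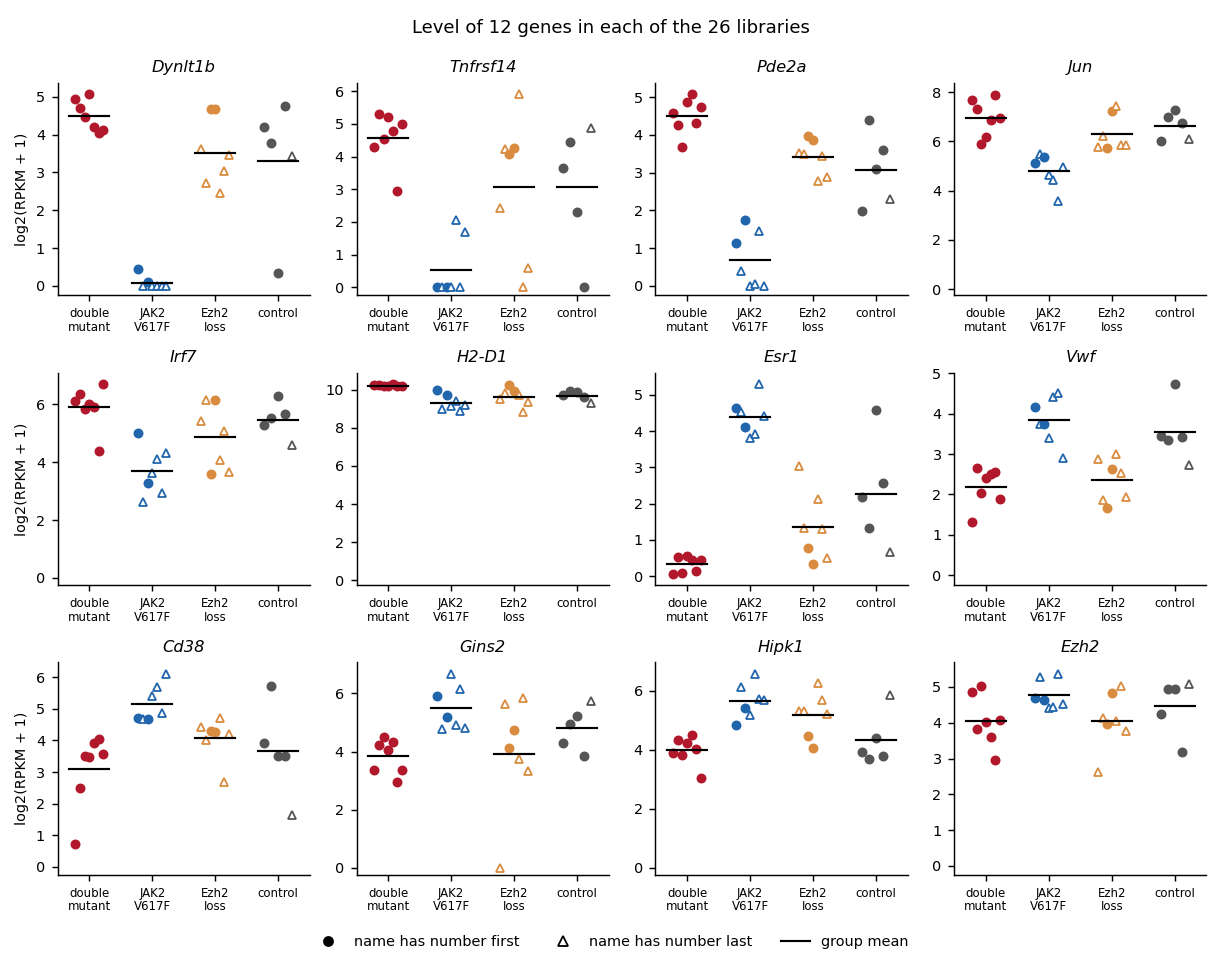
log2(RPKM + 1) of 12 genes in each of the 26 libraries, by group, with the group mean as a line; filled circles are number-first and open triangles number-last titles. Double-mutant and JAK2V617F libraries do not overlap for Dynlt1b, Tnfrsf14, Pde2a, Jun, H2-D1, Esr1, Vwf, Cd38, Gins2 and Hipk1, and overlap for Irf7 and Ezh2.

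The 250 bases before the annotated RefSeq starts of 3 genes with stable calls and no overlap are shown to display their CpG content. PRC2 is known to be recruited to CpG-rich promoters. They are on GRCm38.p6, 5′ to 3′ on the strand of the gene, with each CG pair in capitals. Esr1 is listed with 2 starts, and the data do not show which one the cells used. The 3 genes were picked by hand and Jun is not among the 12 leading rises, so nothing is read from the contrast between them.
Esr1 start 1, chr10:4611739-4611988, plus strand: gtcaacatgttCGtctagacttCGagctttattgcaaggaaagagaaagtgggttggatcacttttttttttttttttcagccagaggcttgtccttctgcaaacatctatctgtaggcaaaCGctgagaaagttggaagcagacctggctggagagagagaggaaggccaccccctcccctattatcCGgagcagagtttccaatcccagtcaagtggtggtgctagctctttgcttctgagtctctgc
Esr1 start 2, chr10:4709908-4710157, plus strand: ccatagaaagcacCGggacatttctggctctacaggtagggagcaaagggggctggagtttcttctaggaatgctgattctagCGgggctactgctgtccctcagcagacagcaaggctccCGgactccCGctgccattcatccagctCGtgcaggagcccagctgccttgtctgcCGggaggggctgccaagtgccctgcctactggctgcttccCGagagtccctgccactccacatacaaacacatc
Tnfrsf14, chr4:154928078-154928327, minus strand: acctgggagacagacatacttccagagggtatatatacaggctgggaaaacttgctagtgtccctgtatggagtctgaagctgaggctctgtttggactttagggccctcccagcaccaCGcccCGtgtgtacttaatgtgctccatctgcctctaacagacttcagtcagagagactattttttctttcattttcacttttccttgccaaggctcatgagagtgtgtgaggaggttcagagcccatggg
Jun, chr4:95052223-95052472, minus strand: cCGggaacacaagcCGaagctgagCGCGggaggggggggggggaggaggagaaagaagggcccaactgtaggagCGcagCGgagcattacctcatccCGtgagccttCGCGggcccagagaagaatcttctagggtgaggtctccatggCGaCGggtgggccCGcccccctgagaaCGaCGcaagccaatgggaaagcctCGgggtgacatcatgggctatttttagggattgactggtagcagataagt
The Jun window held 15 CG pairs, the Esr1 windows 4 and 7, and the Tnfrsf14 window 2. For genes with an entry, the 300-base window that reaches 50 bases past the start was used, that with the most CG pairs where several were listed. The median was 22 CG pairs for 168 rising genes, 19 for 77 falling genes and 22 for 8366 tested genes. The letters TTCNNNGAA are a motif of STAT factors that reads the same on both strands. At least 1 listed window held them in 7.14% of these rising, 10.4% of these falling and 8.51% of these tested genes. Counted by window instead of by gene, the share was 8.3% of all 32851 windows. The second Esr1 window holds 1 such match, ttctaggaa, 188 bases before the start.

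Among the Polycomb genes, 12 of 13 PRC2 subunits were tested: 6 were higher and 6 lower in the double mutant, with a median of -0.06 against 0.14 over all tested genes. Only Phf1, a Polycomb-like accessory protein, was called. Phf1 had 1.35 to 19.2 RPKM (median 10.7) in the double mutant and 0 to 2.81 RPKM (median 0.388) in JAK2V617F, a rise of 2.34 (SE 0.54, limma adjusted p = 0.0281) that was lost in 7 of the 14 fits without 1 library. The core subunit Suz12 had 0.759 to 13.7 RPKM (median 5.12) in the double mutant and 5.92 to 24.2 RPKM (median 11.7) in JAK2V617F, and did not pass (-1.34, adjusted p = 0.132). The second catalytic subunit Ezh1 did not pass either (1.48, adjusted p = 0.149). None of 20 PRC1 subunits was called, and 12 were higher in the double mutant, close to the 58.9% over all tested genes. None of the 12 tested of 34 developmental genes known as PRC2 targets was called, and 7 were higher. The remaining 22 PRC2 targets were below the detection filter in these cells. Over all tested genes 3.0% were called and held, so no calls in lists this short do not show a lack of change.

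Other chromatin genes moved singly. Of 14 SWI/SNF subunits, Smarcd1 rose (2.36, limma adjusted p = 0.0339; 0.32 against number-first libraries) and Arid1a fell (-1.56, adjusted p = 0.0245). Arid1a had 5.66 to 18.1 RPKM in the double mutant and 13.8 to 53.4 RPKM in JAK2V617F. Its call was lost without double-mutant replicate 5 or JAK2V617F replicates 2, 5 or 6, with adjusted p of up to 0.0559, and that of Smarcd1 in 10 of the 14 such fits. Of 17 regulators mutated in myeloid neoplasms, the splicing factor gene Srsf2 fell, with 305 to 662 RPKM (median 416) in the double mutant and 409 to 1437 RPKM (median 1163) in JAK2V617F (-1.19, adjusted p = 0.0184). Its limma adjusted p stayed under 0.05 in each of the 14 fits without 1 library (at most 0.0439). Its direction did not hold in every such fit, so Srsf2 is not among the stable genes. The difference was -0.35 against number-first and -1.53 against number-last libraries.

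Cytokine receptors were mostly higher in the double mutant: 19 of 21 tested, 15 of them against both kinds of JAK2V617F library, with a median of 0.80 against 0.14 over all tested genes (0.34 against number-first and 0.86 against number-last libraries). The interferon gamma receptor gene Ifngr1 had 132 to 210 RPKM (median 178) in the double mutant and 69.2 to 148 RPKM (median 102) in JAK2V617F. It rose by 0.80 (limma adjusted p = 0.0281) and the interleukin-1 receptor gene Il1r1 by 1.48 (adjusted p = 0.047). Il1r1 was low, at 2.06 to 6.22 RPKM in the double mutant and 0 to 1.57 RPKM in JAK2V617F, but without overlap. These calls were lost in 8 and 12 of the 14 fits without 1 library.

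Further down the pathway, 22 of 28 JAK kinases, STAT factors and feedback genes were higher in the double mutant, 14 of them against both kinds, with a median of 0.64 (0.13 against number-first libraries). The phosphatase gene Ptpn6, whose product SHP-1 restrains cytokine receptor signalling, had 220 to 269 RPKM (median 251) in the double mutant and 125 to 201 RPKM (median 160) in JAK2V617F. It rose by 0.69 (SE 0.14, limma adjusted p = 0.0152) without overlap, and the call was stable. Of 18 STAT5 and STAT3 target genes, 13 were higher and 2 called: the transcription factor genes Gfi1b (0.80, adjusted p = 0.0271) and Junb (1.80, adjusted p = 0.041; 0.24 against number-first libraries). These 2 calls were lost in 8 and 11 of the 14 fits without 1 library.

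Type I interferon genes leaned the same way: 33 of 36 were higher in the double mutant, 25 against both kinds of JAK2V617F library, with a median of 0.62 (0.35 against number-first and 0.66 against number-last libraries). Irf7, the transcription factor that amplifies the interferon response, had 19.9 to 102 RPKM (median 63.9) in the double mutant and 5.15 to 31.0 RPKM (median 11.3) in JAK2V617F. The gene lies on chromosome 7 (GRCm38, 141262706 to 141266481, minus strand). It rose by 2.21 (SE 0.39, limma adjusted p = 0.00974), a stable call, and 1 double-mutant library lay within the JAK2V617F range. The antiviral gene Oasl2 had 38.4 to 112 RPKM (median 84.1) in the double mutant and 16.3 to 47.3 RPKM (median 39.1) in JAK2V617F. It rose by 1.21 (adjusted p = 0.0307), a call lost in 8 of the 14 fits without 1 library.

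In antigen presentation, the class I heavy chain gene H2-D1 was even across the double mutant, at 1159 to 1243 RPKM (median 1164), and lower in JAK2V617F, at 473 to 1013 RPKM (median 580). It rose by 0.88 (SE 0.15, limma adjusted p = 0.00828) without overlap, a stable call, though by 0.36 against number-first libraries. H2-D1 belongs to a family of near-identical class I genes, so its reads may be shared. The chaperone gene Canx, which folds class I chains, fell instead (-1.34, adjusted p = 0.0184, stable; -0.32 against number-first libraries). Over the 16 class I presentation genes 11 were higher, and the median was 0.10. None of 9 class II genes was called and 7 were lower.

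Of 24 immediate early genes, 16 were lower and 8 higher in the double mutant (median -0.18, but 0.26 against number-first libraries), and the 2 called were both AP-1 genes that rose. Jun had 57.5 to 237 RPKM (median 121) in the double mutant and 11 to 43.4 RPKM (median 30.5) in JAK2V617F. Every double-mutant library was above every JAK2V617F library. Jun lies on chromosome 4 (GRCm38, 95049034 to 95052222, minus strand). The rise was 2.16 (SE 0.34, limma adjusted p = 0.00635), with 1.72 against number-first and 2.34 against number-last libraries, and was stable. Junb was the other.

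Genes of the stem cell state went both ways: of 37 tested, 22 were higher and 15 lower (median 0.13, but -0.12 against number-first libraries). The ETS factor gene Erg had 15.2 to 43.4 RPKM (median 20.4) in the double mutant and 3.29 to 14.1 RPKM (median 4.60) in JAK2V617F, a rise of 1.65 (SE 0.39, limma adjusted p = 0.0301) without overlap. Lyl1, which encodes a helix-loop-helix factor of HSCs, rose by 1.24 (adjusted p = 0.0323). Vwf, described above, fell. The Erg and Lyl1 calls were lost in 7 and 8 of the 14 fits without 1 library.

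For the lineages, Vwf fell among 25 megakaryocyte and platelet genes, of which 14 were higher and 11 lower (median 0.29, but -0.12 against number-first libraries). The summed megakaryocyte markers had medians of 289 RPKM in the double mutant and 317 RPKM in JAK2V617F. None of 8 tested lymphoid priming genes was called, although all 8 were higher (median 0.72, and 0.67 against number-first libraries). The growth factor receptor gene Flt3, which is also in the receptor list, had 2.01 to 18.1 RPKM (median 7.49) in the double mutant and 0 to 5.21 RPKM (median 0.311) in JAK2V617F (1.96, limma adjusted p = 0.0658). Among 15 granulocyte and monocyte genes 14 were higher and none called, and the median was 1.32 over all libraries but -0.11 against the number-first ones. The neutrophil marker sums given above moved with single libraries of both groups, and without the 3 S100a8-high libraries 365 genes rose and 231 fell. Of these 3, JAK2V617F replicate 3 is also 1 of the 2 number-first JAK2V617F libraries. Without that library alone 438 genes rose and 239 fell, so these counts cannot be tied to neutrophil transcripts. In bulk libraries of this kind, fewer cells of a type and less RNA per cell cannot be told apart.

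Of 78 cytosolic ribosomal protein genes, 51 were higher and 27 lower in the double mutant, with a median of 0.71. Among them, Rps26, Rplp0, Rps3, Rplp1, Rpl4 and Rpl29 fell in the double mutant. Rps26 had 440 to 801 RPKM (median 513) in the double mutant and 703 to 1235 RPKM (median 989) in JAK2V617F (-0.84, limma adjusted p = 0.00974). Rplp0 and Rpl4 fell by 0.82 and 0.91 (adjusted p = 0.00974 each), and the calls on Rps26, Rplp0 and Rpl4 were stable. Against number-first libraries Rplp0 and Rpl4 differed by -0.38 and -0.26, and against number-last ones by -0.99 and -1.17. The median turned with the kind of library: it was -0.49 against number-first and 1.13 against number-last JAK2V617F libraries, with 24 members lower and 1 higher against both. Many ribosomal protein genes have processed copies in the genome, so their reads may be split.

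Mitochondrial ribosomal protein genes were lower more uniformly: 44 of 57, 37 of them against both kinds of library (median -0.27, against 0.14 over all tested genes), with Mrps16 falling (-0.68, limma adjusted p = 0.0449) and Mrps30 rising (0.89, adjusted p = 0.0387). Of 47 oxidative phosphorylation genes 29 were lower, 25 against both kinds, and the complex II and complex I subunits Sdhb (-0.72, adjusted p = 0.03) and Ndufa2 (-0.63, adjusted p = 0.0421) fell. The proteasome was split: of 31 genes, the regulatory subunits Psmd2 (0.90) and Psmd3 (1.24) rose and the core subunits Psmb4 (-1.02) and Psmb2 (-0.52) fell, with adjusted p of 0.0301 to 0.0454. Psmb4 differed by -0.21 against number-first and -1.35 against number-last libraries, and Psmd3 by 0.33 and 1.60. Calls on these 8 genes were lost in 8 to 11 of the 14 fits without 1 library.

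Of 20 heat shock and chaperone genes 16 were lower, and both cytosolic HSP90 genes fell. Hsp90ab1 had 419 to 629 RPKM (median 539) in the double mutant and 657 to 1179 RPKM (median 809) in JAK2V617F (-0.64, limma adjusted p = 0.0192; 0.0516 without JAK2V617F replicate 6), with no overlap. Hsp90aa1 fell by 0.83 (adjusted p = 0.0271), a call lost in 7 of the 14 fits without 1 library. Of 47 S phase and G2/M genes 29 were lower (median -0.21), with Gins2 the only one called. Npm1, which encodes a nucleolar chaperone of ribosome assembly, fell by 0.47 (adjusted p = 0.0446) among 23 MYC and ribosome biogenesis genes, a call lost in 11 of the 14 fits without 1 library (adjusted p up to 0.0905).

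Single genes rose in other lists. Eng, the TGF-beta co-receptor endoglin found on HSCs, had 68.6 to 144 RPKM (median 110) in the double mutant and 26.4 to 75.3 RPKM (median 34.6) in JAK2V617F (1.34, SE 0.26, limma adjusted p = 0.0137). This call was stable, but the difference was 0.51 against number-first and 1.67 against number-last JAK2V617F libraries. The asparagine synthetase gene Asns rose by 1.38 (adjusted p = 0.035), the lysosomal protease gene Ctsd by 0.97 (adjusted p = 0.043) and the autophagy gene Map1lc3a by 1.30 (adjusted p = 0.0485). Gapdh, a glycolysis gene often used as a reference, had 199 to 352 RPKM in the double mutant and 11.2 to 318 RPKM (median 18.1) in JAK2V617F (2.93, adjusted p = 0.0323). Its difference was 0.15 against number-first and 4.05 against number-last JAK2V617F libraries, so this call rests on the number-last libraries. The last 4 calls were lost in 9 to 12 of the 14 fits without 1 library.

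**Figure D4:**
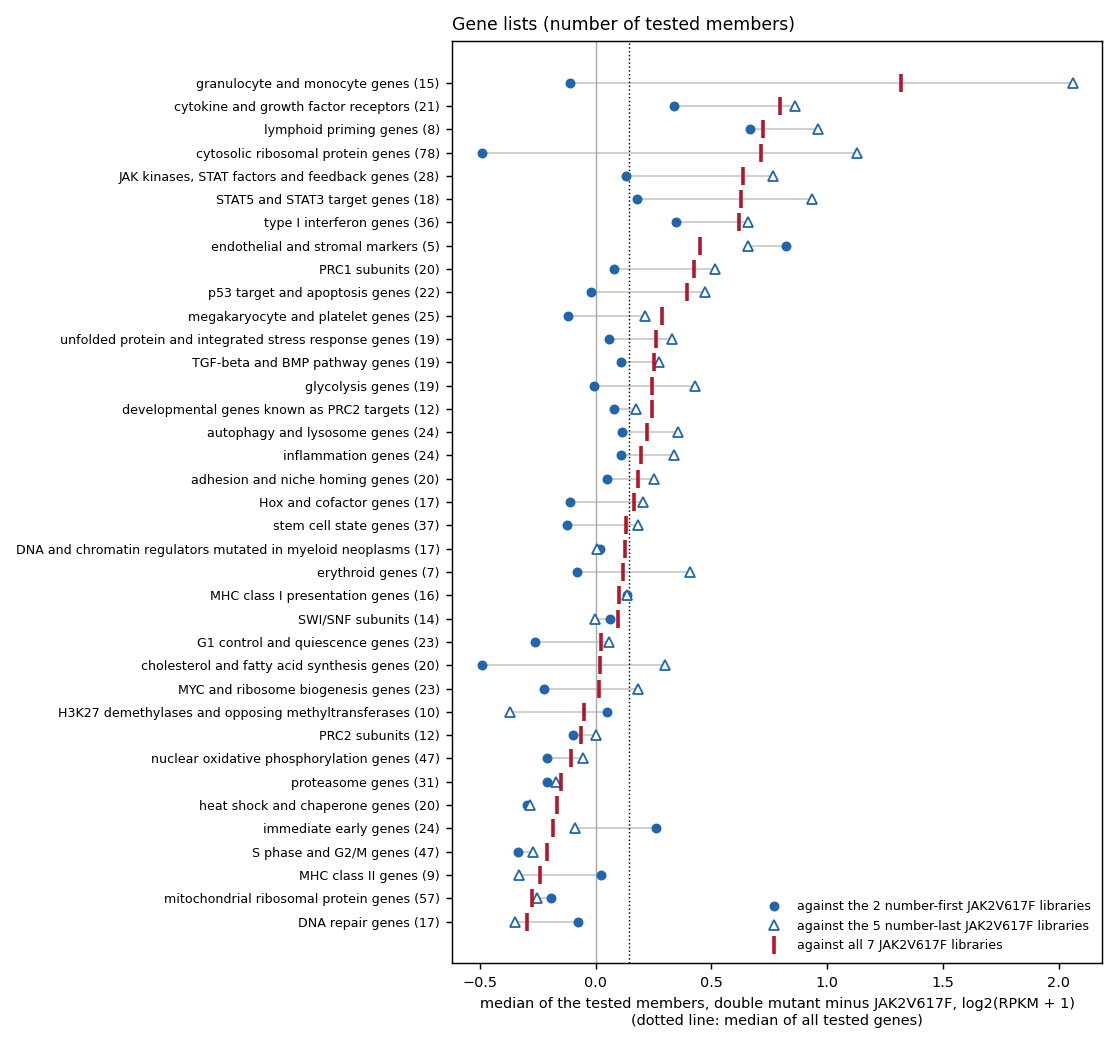
Median log2 difference, double mutant minus JAK2V617F, of the 37 gene lists with at least 5 tested members, against all JAK2V617F libraries and against number-first and number-last ones apart; the dotted line is the median of all tested genes, 0.14. Interferon, cytokine receptor and lymphoid priming lists lie above the line with both kinds of library, and mitochondrial ribosomal protein genes below it; cytosolic ribosomal protein and granulocyte lists lie on opposite sides of 0 with the 2 kinds.

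The change with Ezh2 loss was then set against the same change without JAK2V617F, in 7 Ezh2 loss and 5 control libraries. The difference between the 2 changes was called for 215 of 12116 genes (1.77%), and for 0 genes (0.00%) with title form as a covariate, where 738 had an unadjusted p under 0.05 (6.09%). Title form is unevenly spread here too: 2 of 7 Ezh2 loss and 4 of 5 control titles are number-first. Of the 336 changed genes, 122 were also called in this test, which holds the same difference that chose them, so nothing is read from this count. None of the named genes passed for Ezh2 loss against control, where their lowest limma adjusted p was 0.399.

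Across the 4 groups, the double mutant had the highest group mean for 201 of the 214 rises and JAK2V617F the lowest for 179. For the 122 falls, the double mutant had the lowest mean for 117 and JAK2V617F the highest for 107. Choosing genes for a difference between these 2 groups favours this order, so nothing is read from it. Dynlt1b had medians of 10.1 RPKM in Ezh2 loss and 12.7 RPKM in control libraries, and its change there was 0.22 (SE 0.54), which differed from 4.43 (limma adjusted p of the difference = 0.00837). Pde2a, with medians of 10.2 RPKM in Ezh2 loss and 7.53 RPKM in control libraries, changed by 0.35 (SE 0.45), and the difference between the changes was 3.46 (adjusted p = 0.00837). Esr1 was also at intermediate levels without JAK2V617F, with medians of 1.45 RPKM in Ezh2 loss and 3.58 RPKM in control libraries. Its change was -0.92 (SE 0.54) there and the difference -3.14 (adjusted p = 0.0246). With title form as a covariate none of these differences passed.

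Not all changes passed this test of a difference between the backgrounds. Vwf had a median of 4.81 RPKM in Ezh2 loss and 9.77 RPKM in control libraries, a change of -1.18 (SE 0.41, limma adjusted p = 0.497) that stands beside -1.66 with JAK2V617F, and the difference between the changes was -0.47 (SE 0.56, adjusted p = 0.701). For Gins2 the change was -1.65 with JAK2V617F and -0.89 without it, with a difference of -0.76 (SE 0.87, adjusted p = 0.689). These intervals are wide and do not show that the changes are alike. Erg went the other way without JAK2V617F (-1.62, SE 0.51), and its difference between the changes was 3.28 (adjusted p = 0.0171). Jun had medians of 56.9 RPKM in Ezh2 loss and 108 RPKM in control libraries, so that JAK2V617F libraries, with a median of 30.5 RPKM, were the lowest of the 4 groups.

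**Figure D5:**
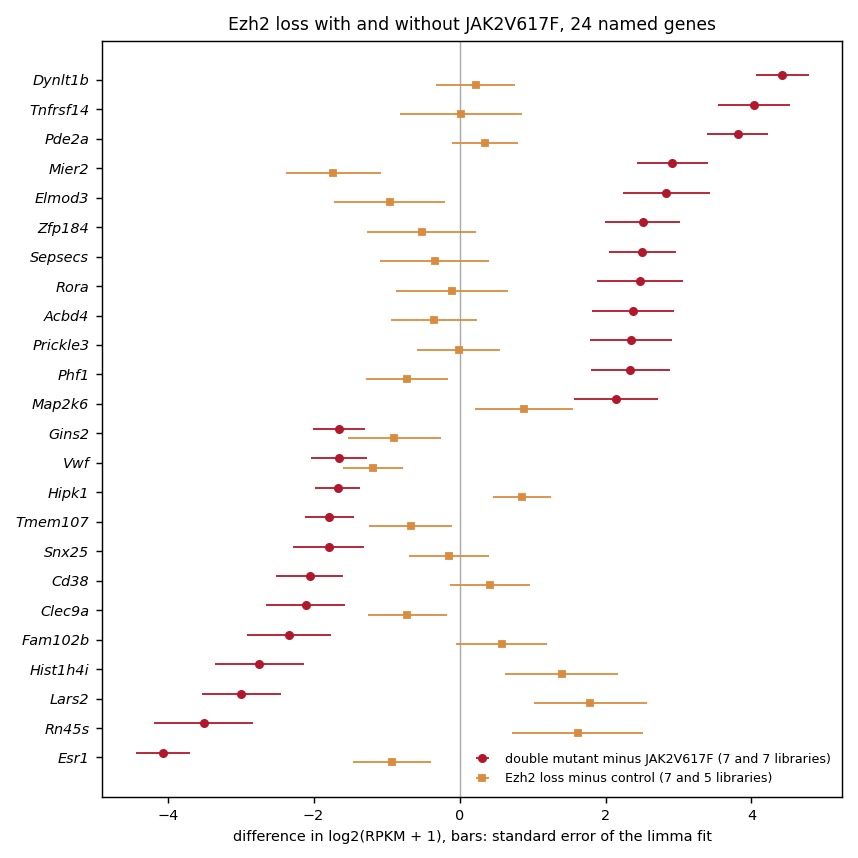
Log2 differences with their SE for 24 named genes: double mutant minus JAK2V617F (red circles) and Ezh2 loss minus control (orange squares). The red points of Dynlt1b, Pde2a and Esr1 lie beyond the orange ones, whereas those of Vwf and Gins2 are close to them.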

How the data were processed

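The data are 26 Smart-Seq2 libraries of mouse HSCs. The authors deposited 1 table of RPKM, with 23416 genes and 1 column per library; all columns were mapped to samples (0 columns not mapped). The processing notes of the submitters list Subread 1.5.0, STAR 2.4.2a and SAMtools 0.1.19 and the build mm10/GRCm38; settings and annotation: not given in the sources used here. RPKM is scaled to each library's total, so a few very abundant genes lower all others.

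Groups came from the genotype label and title forms from the titles. Genes with RPKM of at least 1 in 5 or more of the 14 libraries were tested with limma 3.58.1 in R 4.3.3, on log2(RPKM + 1) with trended and robust variances, two-sided, with Benjamini-Hochberg adjustment. Pair correlations of the 14 libraries ran between 0.749 and 0.888 and no 2 libraries shared a non-zero value, so no column repeats another. This does not show that libraries came from separate mice. Each library was counted as 1 sample. Read totals were estimated from the steps between RPKM values; intervals on single values are not given, since no counts were analysed here. The script was tested on simulated data.

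Ezh2 and Jak2 are always named. The 12 leading rises and falls have a mean of at least 5 RPKM in the higher group and the largest smaller difference against the 2 kinds of JAK2V617F library; predicted genes, pseudogenes and small RNA genes were passed over. Genes called with title form as a covariate and up to 4 held members of each of the 41 lists by smallest p may also be named, and a few of these genes are not reported here. The members and lists were chosen with earlier results of these data known. Lists are described by counts and medians, with no test; 13 of 1032 list entries were matched by an older symbol and 6 are not in the table. Promoters are from RefSeq, positions and exon lengths from GENCODE M21 on GRCm38. Alternatives covered the pseudocount, scaling, filter, variance model, threshold, covariates, title form and each library left out; leaving out the 3 S100a8-high libraries and the Rn45s and Y-linked gene covariates were added after seeing the data.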

Additional observations from a re-analysis of the deposited data

Results flagged for a closer look

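Among 122 groups of 7 libraries (61 named genes, 2 groups each), 9 held a library that stood apart from the rest by Dixon's test, which chance does in about 1 in 20 groups. The first number in each pair of brackets is the gap to the nearest library as a share of the group's range, on the log2(RPKM + 1) scale. In the double mutant, replicate 6 stood apart for Tnfrsf14 (0.570; 6.71 RPKM, next 18.6), Clec9a (0.968; 0.728 RPKM, next 0.0176) and Irf7 (0.631; 19.9 RPKM, next 56.3). Replicate 5 was low for Ifngr1 (0.591; 132 RPKM, next 174). In JAK2V617F, replicate 5 was low for Jak2 (0.792; 0.996 RPKM, next 11.4) and Mrps16 (0.574; 191 RPKM, next 264). Replicate 1 was high for Dynlt1b (0.779; 0.369 RPKM, next 0.0721), replicate 2 high for Map2k6 (0.677; 11.1 RPKM, next 1.24) and replicate 3 low for Rn45s (0.773; 364 RPKM, next 3268). Dynlt1b in JAK2V617F and Clec9a in the double mutant were at 0 in 5 of the 7 libraries. Both flags therefore rest on values under 1 RPKM, and the rate of 1 in 20 does not apply to groups made mostly of zeros.

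The change with Ezh2 loss differed between the JAK2V617F and the control background for 23 of the 61 named genes (limma adjusted p under 0.05 for the difference between the 2 changes). Over all 12116 genes of this test it did so for 215 (1.77%). Most named genes were chosen for the change with JAK2V617F, which is part of this difference, so nothing is read from the 23. None of the 23 passed with title form as a covariate. On the log2 scale, the change with JAK2V617F minus that without was positive for Mier2 (4.64), Gapdh (4.96), Dynlt1b (4.21), Pde2a (3.46), Erg (3.28), Phf1 (3.06), Junb (2.91), Irf7 (2.81), Jun (2.50), Eng (1.89), Mrps30 (1.58) and H2-D1 (0.95). It was negative for Rn45s (-5.13), Lars2 (-4.78), Hist1h4i (-4.15), Esr1 (-3.14), Arid1a (-2.64), Hipk1 (-2.52), Psmb4 (-1.62), Rpl4 (-1.34), Rplp0 (-1.13), Hsp90ab1 (-0.90) and Rps26 (-0.88).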

How the results depend on the processing

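Counts are given as rises and falls, set against 214 and 122. They were 112 rises with a pseudocount of 0.1, 81 and 57 with no filter on low values, 79 and 25 with plain variance moderation (76.0% of calls higher, against 63.7%), 98 and 69 with a neutrophil score covariate, 495 and 275 at an adjusted p under 0.1, 50 and 26 where groups must not overlap, and 365 and 231 without the 3 S100a8-high libraries. With title form they were 3 and 1 as a covariate in 14 libraries, 2 and 1 in 26, 5 and 1 with number-first JAK2V617F libraries only (83.3% higher), and 652 and 320 with number-last ones only. The counts were 4 and 2 with detected genes and 1 and 0 with Rn45s as a covariate. Without 1 library they ran from 72 to 447 rises and from 44 to 239 falls. The highest counts came without a number-first JAK2V617F library, replicate 1 or 3, and replicate 3 is also among the S100a8-high libraries. By the exact permutation test, the Ezh2 difference lost its p under 0.05 with number-first (-0.623) or number-last (-0.754) JAK2V617F libraries only. Fits with a covariate or all 26 libraries used the unadjusted limma p, another test than the main one. That p was above 0.05 in all 26 libraries (-0.717), with title form as a covariate (-0.623 in 14 libraries, -0.698 in 26), and with detected genes (-0.465) or Rn45s (-0.304) as a covariate. Without 1 library the Ezh2 difference ran from -0.878 to -0.533. The difference between backgrounds went from 215 genes to 0 with the title form covariate. Jak2 turned to 0.168 and Psmb4 to 0.111 with the Rn45s covariate, and Jak2, which ran from -0.675 to 0.070 without 1 library, was reversed without double-mutant replicate 7. The cause was not tested for any of these. The 64 genes chosen by the naming rule, without Ezh2, gave 1380 values on the same side of the threshold, 781 no longer past it, 2 newly past it and 3 reversed. No paired analysis was possible because replicates were numbered in accession order, which ties no library of 1 group to a library of the other.

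Depth limits low genes, more so in the 5 number-last JAK2V617F libraries, which had the fewest reads of the 14. The comparison cannot be told apart from title form beyond the 2 number-first JAK2V617F libraries.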

Other observations

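The genes in this section were chosen after their values were seen, so their grouping supports nothing. The following 6 act in actin assembly, with no count over other such genes. Cap1, an actin-monomer recycling factor, had 17.7 to 85.6 RPKM (median 34.2) in the double mutant and 0 to 18.9 RPKM (median 2.15) in JAK2V617F, a log2 difference of 3.73 (limma adjusted p = 0.00828). Cotl1 and Gsn rose by 2.36 each, Capza1 by 1.47, Zyx by 1.42 and Coro1a by 1.15. Gsn and Capza1 had no overlap between the groups, and Coro1a and Zyx differed by 0.26 and 0.36 against number-first JAK2V617F libraries.

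Snhg6, a host transcript of small nucleolar RNAs, had 45.5 to 114 RPKM (median 81.6) in the double mutant and 162 to 346 RPKM (median 290) in JAK2V617F, a difference of -1.68 (limma adjusted p = 0.00114) with no overlap. Gas5, another host transcript, fell by 1.32, with 170 to 465 RPKM in the double mutant and 437 to 979 RPKM in JAK2V617F, and Snhg8 fell by 1.11. The translation factor genes Eef1b2, Eif3k and Eif3e fell by 1.03, 0.81 and 0.64, with no count over other such genes. Eif3e had 155 to 204 RPKM in the double mutant and 235 to 351 RPKM in JAK2V617F.

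Against the lean of the interferon list, the interferon-inducible membrane gene Ifitm1 fell, with 1507 to 3120 RPKM (median 1900) in the double mutant and 3156 to 4195 RPKM (median 3348) in JAK2V617F, a difference of -0.78 (limma adjusted p = 0.00974) with no overlap. The interferon-inducible nuclear body gene Sp100 rose by 1.10 (adjusted p = 0.0123), with 70.7 to 142 RPKM in the double mutant and 33.8 to 75.7 RPKM in JAK2V617F. Dok3, an adaptor that dampens immune receptor signalling, rose by 2.61 (adjusted p = 0.00974) without overlap, and the lymphotoxin beta gene Ltb by 0.98 (adjusted p = 0.0184).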
